A study of Mus musculus with 31 samples.

Results

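Genes that mark the choroid plexus and the ciliated ependyma were followed mouse by mouse through RNA-sequencing of the caudate putamen (CPu, the dorsal striatum), to ask whether the 2 groups of genes rise in the same mice and whether they differ with *Brd1* genotype or imipramine. The 33 genes were chosen by name, 14 for the choroid plexus (*Ttr* to *Tmem72* in the order of the plot of all genes by mouse) and 19 for the ependyma (*Ccdc153* to *Stoml3*), out of 52636 gene identifiers in the table. All 33 were found by symbol.

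The choroid plexus is the secretory epithelium that hangs into the brain ventricles and makes cerebrospinal fluid, and transthyretin, the thyroxine carrier encoded by *Ttr*, is its most familiar product. The ependyma is the single layer of cells that lines the ventricles and moves this fluid with motile cilia, whose genes are switched on by the transcription factor Foxj1 together with factors of the RFX family. Both tissues border the striatum and are not part of it, so in a punch of CPu their genes can come from tissue at the ventricular edge, and some of them are also used by other brain cells.

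By their labels all 31 mice, WT included, had the strain name C57BL/6NTac-Brd1, were female and were 8 to 11 weeks old, and each gave 1 punch of the right CPu from frozen coronal sections. WT mice received vehicle (saline, n = 8) or imipramine (IMN, a tricyclic antidepressant, 10 mg/kg, n = 8), and *Brd1*+/- mice, a single line heterozygous for a targeted deletion in *Brd1* with loxP sites around exons 3 to 5, received vehicle (n = 7) or IMN (n = 8). All mice, controls included, were injected subcutaneously on 2 consecutive days, went through tail suspension, open field and forced swim tests, and were killed 1 hour after the last of these. Values are TPM, a transcript abundance in which gene length and the total of each mouse are already divided out.

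The level of *Brd1* checked the labels. It was 22.5 ± 2.97 TPM (SD, n = 8) in WT vehicle mice, 13.4 ± 2.02 TPM (SD, n = 7) in *Brd1*+/- vehicle mice, 19.9 ± 2.67 TPM (SD, n = 8) in WT IMN mice and 12.8 ± 1.04 TPM (SD, n = 8) in *Brd1*+/- IMN mice. Some samples stood apart. WT vehicle mouse 7 had a summed level of 26.8 TPM for 4 Y-linked genes, against 0.188 TPM or less in every other mouse, which goes against its female label. The summed level of 10 cortical neuron markers was 1027 to 2299 TPM in 6 of the 8 WT vehicle mice (1, 2, 3, 4, 5 and 7), 108 and 115 TPM in the other two, 1175 TPM in WT IMN mouse 5 and at most 591 TPM elsewhere, and the sum of 10 striatal neuron markers went down to 276 TPM in WT vehicle mouse 2 against 5050 TPM or more in every mouse outside that group. A gene's level in a punch cannot tell fewer cells of a type apart from less RNA per cell.

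The 2 gene groups were at the edge of detection in most punches. Of the 33 genes, 9 were above 0 TPM in every mouse, 16 had a median listed at 0, and 20 never reached more than 1 TPM in any mouse. The genes above 1 TPM in every mouse were 4, *Enpp2* of the choroid plexus group and *Foxj1*, *Rarres2* and *Cd24a* of the ependyma group. The remaining ependyma genes, 16 in all, summed to between 0.806 and 15.6 TPM per mouse, and the choroid plexus genes other than *Enpp2*, *Clic6* and *Kl* to between 0.127 and 23.7 TPM. Defining genes of both tissues were therefore at or near 0 in the majority of mice, and each group's summed level was carried by a few genes.

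**Figure D1:**
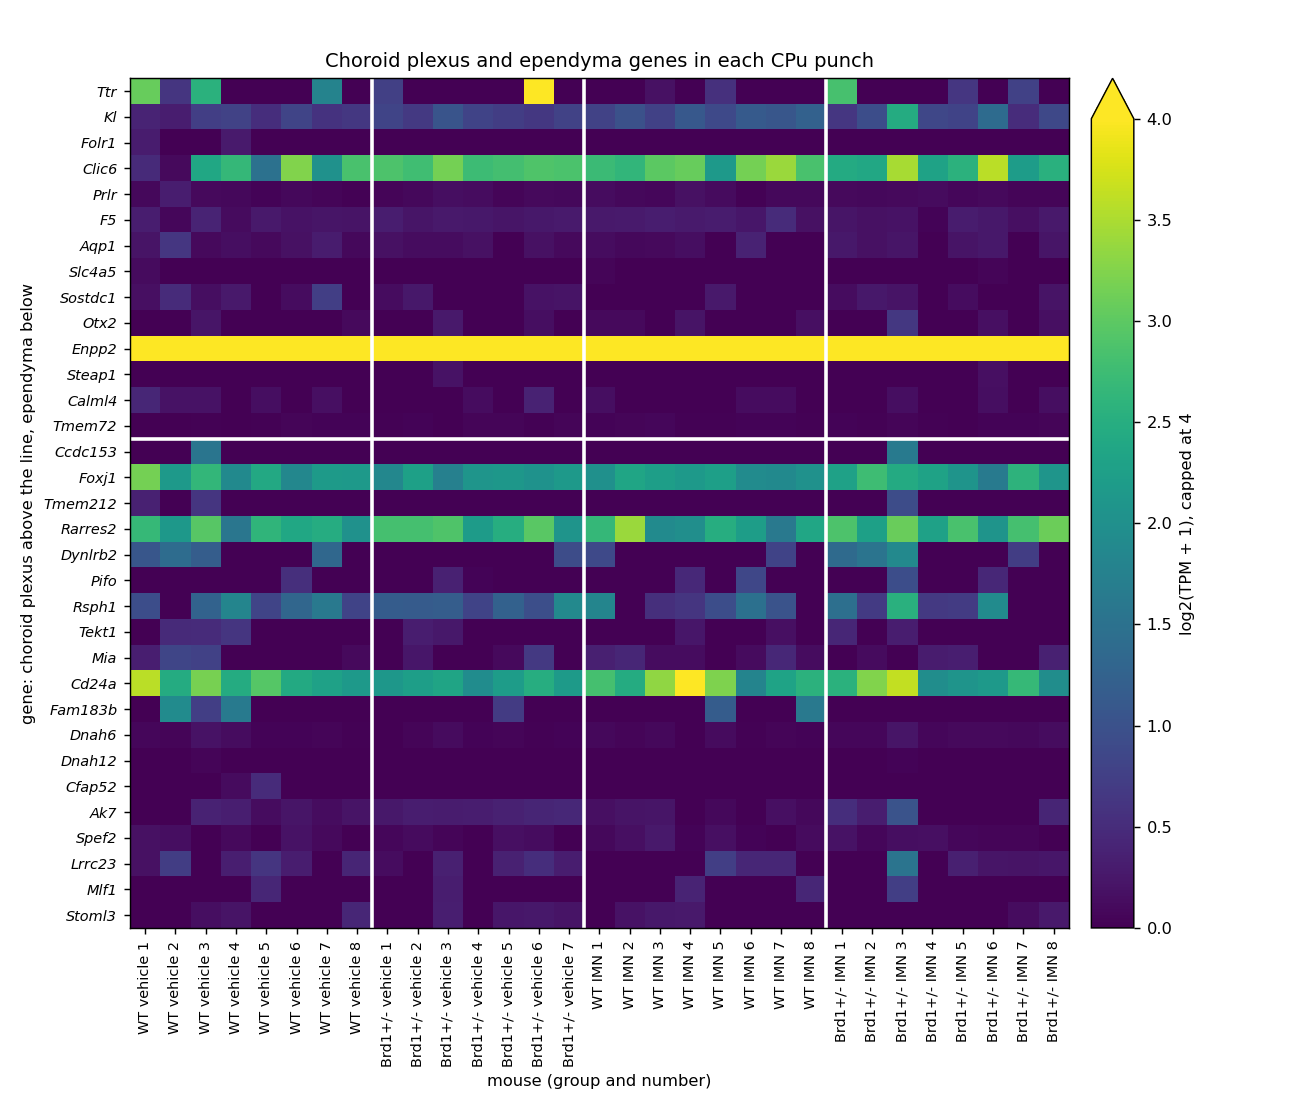
Each column is 1 mouse, each row 1 gene, and colour gives log2(TPM + 1), capped at 4 (*Enpp2* and the highest *Ttr* and *Cd24a* values exceed the cap). White lines separate the 4 groups of mice and the 14 choroid plexus genes from the 19 ependyma genes. *Ttr* stands out in Brd1+/- vehicle mouse 6, and a column of ependyma genes stands out in Brd1+/- IMN mouse 3.

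Upstream sequence was examined because many ciliary genes carry RFX sites near their start. Among RefSeq promoters (GRCm38.p6, 250 bases before to 50 after the gene start), entries were found for 15 of the 19 ependyma genes and 9 of the 14 choroid plexus genes. The RFX motif GTTGCC, searched on both strands, lay in 8 of the 15 ependyma promoters (*Ccdc153*, *Dynlrb2*, *Fam183b*, *Lrrc23*, *Mlf1*, *Pifo*, *Spef2* and *Tekt1*) and in 3 of the 9 choroid plexus promoters (*Aqp1*, *Otx2* and *Steap1*), and 14.1% of the 27025 genes with a promoter held it. The forkhead motif GTAAACA, searched likewise, lay in 3 of 15 (*Ak7*, *Mlf1* and *Stoml3*) and 1 of 9 (*Prlr*), against 4.05% of all genes, and the OTX motif TAATCC in 3 of 15 and in 1 of 9, *Otx2* itself, against 8.14%. A match describes the letters of this window only.

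The 250 bases before the start are printed for 4 ependyma genes, picked for their RFX match from the 9 that had their highest level in the same mouse. Of the other 5, *Pifo* also held GTTGCC, *Tmem212*, *Dnah6* and *Ak7* did not, and *Rsph1* had no entry. They lie at chr9:44240427-44240676 on the plus strand (*Ccdc153*), chr8:116504765-116505014 on the plus strand (*Dynlrb2*), chr6:124779728-124779977 on the minus strand (*Lrrc23*) and chr3:67373847-67374096 on the plus strand (*Mlf1*). Each is written from 5′ to 3′ of the gene with the matches in capitals. These are GTTGCC or its reverse complement in all of them, TGTTTAC, the reverse complement of the forkhead motif, in *Mlf1*, and GGATTA, that of the OTX motif, in *Lrrc23* and *Mlf1*, and none of these matches overlaps another.
Ccdc153: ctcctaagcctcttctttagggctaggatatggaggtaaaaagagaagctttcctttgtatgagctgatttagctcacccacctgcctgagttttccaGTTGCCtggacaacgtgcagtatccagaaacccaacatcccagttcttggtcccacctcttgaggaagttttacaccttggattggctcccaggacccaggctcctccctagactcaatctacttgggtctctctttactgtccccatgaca
Dynlrb2: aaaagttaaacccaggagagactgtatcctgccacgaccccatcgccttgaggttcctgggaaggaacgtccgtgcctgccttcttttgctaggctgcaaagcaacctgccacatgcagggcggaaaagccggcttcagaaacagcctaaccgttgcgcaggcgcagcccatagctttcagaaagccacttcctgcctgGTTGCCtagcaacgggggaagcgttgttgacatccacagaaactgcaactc
Lrrc23: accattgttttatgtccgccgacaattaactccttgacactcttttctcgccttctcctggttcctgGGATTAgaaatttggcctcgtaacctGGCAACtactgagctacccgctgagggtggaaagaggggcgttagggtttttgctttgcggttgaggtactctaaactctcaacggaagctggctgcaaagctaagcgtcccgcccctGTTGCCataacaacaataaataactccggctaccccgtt
Mlf1: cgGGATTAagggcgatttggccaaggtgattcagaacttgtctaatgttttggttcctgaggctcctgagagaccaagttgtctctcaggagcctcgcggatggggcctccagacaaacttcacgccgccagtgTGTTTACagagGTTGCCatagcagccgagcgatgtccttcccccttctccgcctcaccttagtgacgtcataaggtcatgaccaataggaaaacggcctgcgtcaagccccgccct

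Among the choroid plexus genes, *Ttr* was listed at 0 in most mice and high in a few. It was above 0 TPM in 11 of 31 mice and above 1 TPM in 5. Its values were 22.7 TPM in Brd1+/- vehicle mouse 6, 7.40 in WT vehicle mouse 1, 6.17 in Brd1+/- IMN mouse 1, 4.90 in WT vehicle mouse 3 and 2.46 in WT vehicle mouse 7, and the other 6 mice above 0 had 0.127 to 0.707 TPM. By group, it was above 0 in 4 of 8 WT vehicle mice, 2 of 7 *Brd1*+/- vehicle mice, 2 of 8 WT IMN mice and 3 of 8 *Brd1*+/- IMN mice, so that every group had mice at 0 and all groups overlapped.

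*Folr1*, the folate receptor through which the choroid plexus moves folate into cerebrospinal fluid, was above 0 in WT vehicle mice 1 and 4 only, at 0.238 and 0.219 TPM, and listed at 0 in the other 29. Transporters of the epithelium also stayed under 1 TPM: the water channel gene *Aqp1* was above 0 in 25 mice with a highest value of 0.544 TPM in WT vehicle mouse 2, and the bicarbonate transporter gene *Slc4a5* in 3 mice with at most 0.0812 TPM. The choroid plexus transcription factor gene *Otx2* was above 0 in 11 mice, at 0.567 TPM in Brd1+/- IMN mouse 3 and at most 0.203 TPM in any other. *Prlr* (prolactin receptor), *F5* (coagulation factor V) and *Tmem72* were above 0 in 31, 31 and 29 mice but reached only 0.255, 0.401 and 0.0552 TPM. *Sostdc1*, a secreted antagonist of BMP and Wnt signals, peaked at 0.678 TPM in WT vehicle mouse 7, *Calml4* at 0.349 TPM in WT vehicle mouse 1, and *Steap1* at 0.151 TPM in Brd1+/- vehicle mouse 3.

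Of the choroid plexus genes, 3 had a higher level in every mouse or nearly so. *Kl* encodes klotho, the co-receptor of the hormone FGF23, and ranged over the groups from 0.242 to 0.768 TPM (median 0.536) in WT vehicle mice, 0.570 to 1.06 TPM (median 0.721) in *Brd1*+/- vehicle mice, 0.717 to 1.36 TPM (median 1.05) in WT IMN mice and 0.418 to 4.53 TPM (median 0.810) in *Brd1*+/- IMN mice. The highest value, in Brd1+/- IMN mouse 3, was 2.77 times the next, 1.63 TPM in Brd1+/- IMN mouse 6. *Clic6*, of the chloride intracellular channel family, ranged from 0.0760 TPM in WT vehicle mouse 2 to 11.0 TPM in Brd1+/- IMN mouse 6. *Enpp2*, which encodes autotaxin, the enzyme that makes lysophosphatidic acid, ranged from 40.1 TPM in Brd1+/- IMN mouse 6 to 290.6 TPM in WT vehicle mouse 1.

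**Figure D2:**
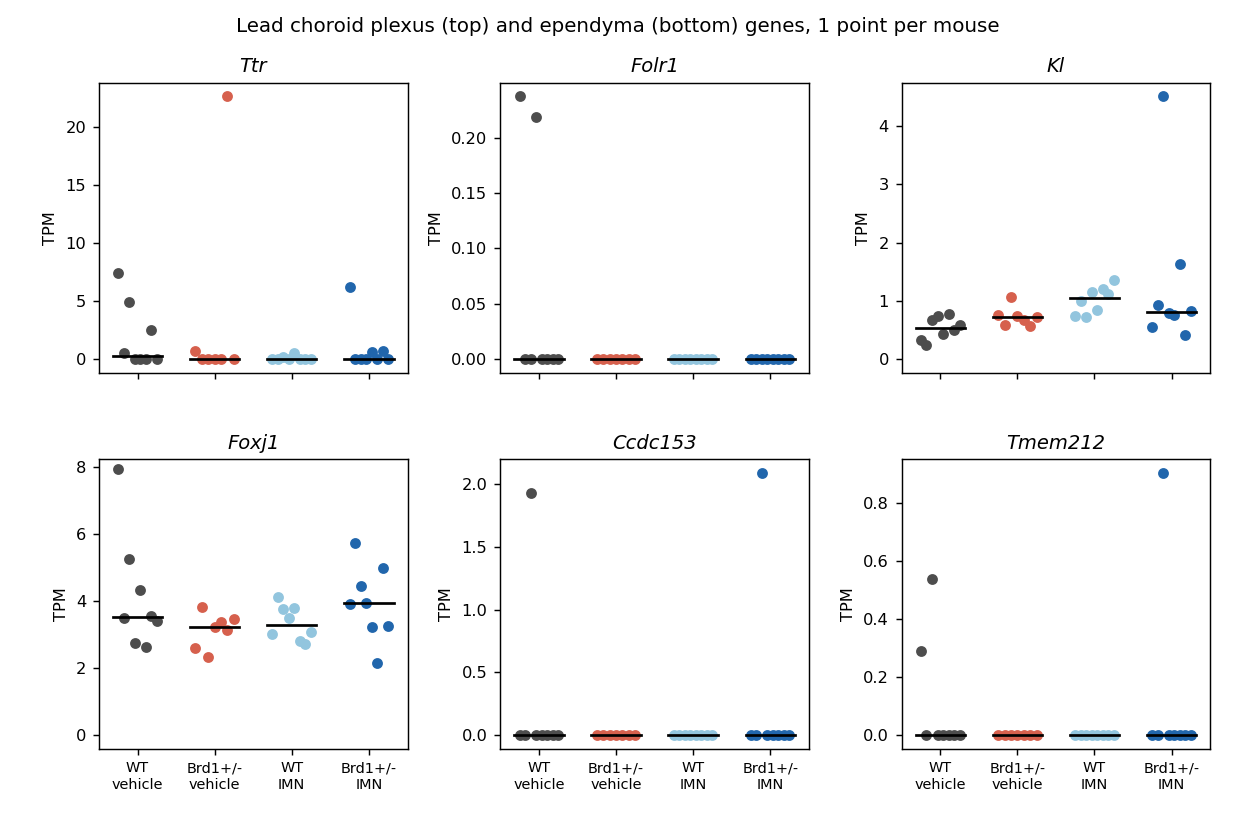
TPM of 3 choroid plexus genes (top) and 3 ependyma genes (bottom) in each of the 4 groups, with 1 point per mouse and a line at the group median. *Folr1* is above 0 in 2 mice, *Ccdc153* in 2 and *Tmem212* in 3, and the groups overlap in each panel.

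Among the ependyma genes, *Foxj1*, the factor that directs motile cilia, was present in every mouse. It ranged from 2.62 to 7.94 TPM (median 3.51) in WT vehicle mice, 2.33 to 3.83 TPM (median 3.24) in *Brd1*+/- vehicle mice, 2.71 to 4.12 TPM (median 3.29) in WT IMN mice and 2.14 to 5.75 TPM (median 3.93) in *Brd1*+/- IMN mice. WT vehicle mouse 1 was the highest, and the ranges of all groups overlapped. In contrast, *Ccdc153* and *Tmem212*, which mark ependymal cells more narrowly, were detected in a few mice. *Ccdc153* was 2.09 TPM in Brd1+/- IMN mouse 3 and 1.93 TPM in WT vehicle mouse 3 and listed at 0 in the other 29, and *Tmem212* was 0.905, 0.539 and 0.290 TPM in Brd1+/- IMN mouse 3, WT vehicle mouse 3 and WT vehicle mouse 1. *Dnah12*, an axonemal dynein heavy chain, was above 0 in the same 2 mice as *Ccdc153*.

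Brd1+/- IMN mouse 3 held the highest level of 11 of the 33 genes, whereas it held the highest level of 6.54% of the 34905 genes above 0 in at least 1 mouse. They were 9 of the 19 ependyma genes and 2 of the 14 choroid plexus genes (*Kl* and *Otx2*). The axonemal genes among them were *Rsph1*, a radial spoke protein, at 4.83 TPM against at most 2.81 elsewhere, *Lrrc23*, another radial spoke protein, at 1.90 against 0.673, *Ak7*, an adenylate kinase of cilia, at 1.04 against 0.441, *Dynlrb2*, a dynein light chain, at 2.70 against 1.91, and *Dnah6*, a dynein heavy chain, at 0.174 against 0.142. *Pifo*, a ciliary protein, was 0.924 TPM there and 0.814 in the next mouse, and *Mlf1* was 0.665 against 0.353. The summed ependyma level of this mouse, 39.0 TPM, was above the 10.7 to 27.6 TPM of all others.

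The other ependyma genes had their highest levels elsewhere. *Fam183b*, above 0 in 6 mice, was 2.83 TPM in WT vehicle mouse 2 and listed at 0 in Brd1+/- IMN mouse 3. *Tekt1*, which encodes a tektin of ciliary microtubules, reached 0.528 TPM in WT vehicle mouse 4, *Cfap52* 0.406 TPM in WT vehicle mouse 5, *Stoml3* 0.343 TPM in WT vehicle mouse 8, *Mia* 0.785 TPM in WT vehicle mouse 2 and *Spef2* 0.202 TPM in WT IMN mouse 3. *Rarres2*, which encodes the secreted attractant chemerin, was 1.96 to 9.52 TPM over all mice and *Cd24a*, a surface glycoprotein of ependymal cells and of young neurons, 2.48 to 15.2 TPM, with the highest values in WT IMN mice 2 and 4.

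Motile cilia genes outside the 33 were high in the same mouse. Of 29 further genes of the ciliary programme and axoneme, 10 had their highest level in Brd1+/- IMN mouse 3 (*Rfx3*, *Rsph4a*, *Hydin*, *Spag6l*, *Spag16*, *Spag17*, *Cfap44*, *Cfap126*, *Zmynd10* and *Sntn*), and their sum was 110.7 TPM there against 54.8 to 87.6 TPM in the others. Of 15 further choroid plexus genes above 0 in at least 1 mouse, 1 (*Car12*) was highest there. WT vehicle mouse 1 held 5 of the 15, beside 15.1% of all genes above 0. Brd1+/- vehicle mouse 4 held 4 of the 15 (*Slc13a4*, *Msx1*, *Wdr86* and *Igf2*), beside 1.75%. *Lmx1a*, *Krt8* and *Krt18* were listed at 0 in every mouse. In Brd1+/- IMN mouse 3 the sum of 7 markers of subventricular neuroblasts, the young neurons that lie beneath the ependyma, was 58.0 TPM, below 61.8 TPM in WT IMN mouse 4 and above the rest (46.6 TPM in both mice without *Cd24a*, which is a neuroblast marker as well as one of the 33), and that of cortical neurons was 127 TPM. Their part in the result was not tested.

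**Figure D3:**
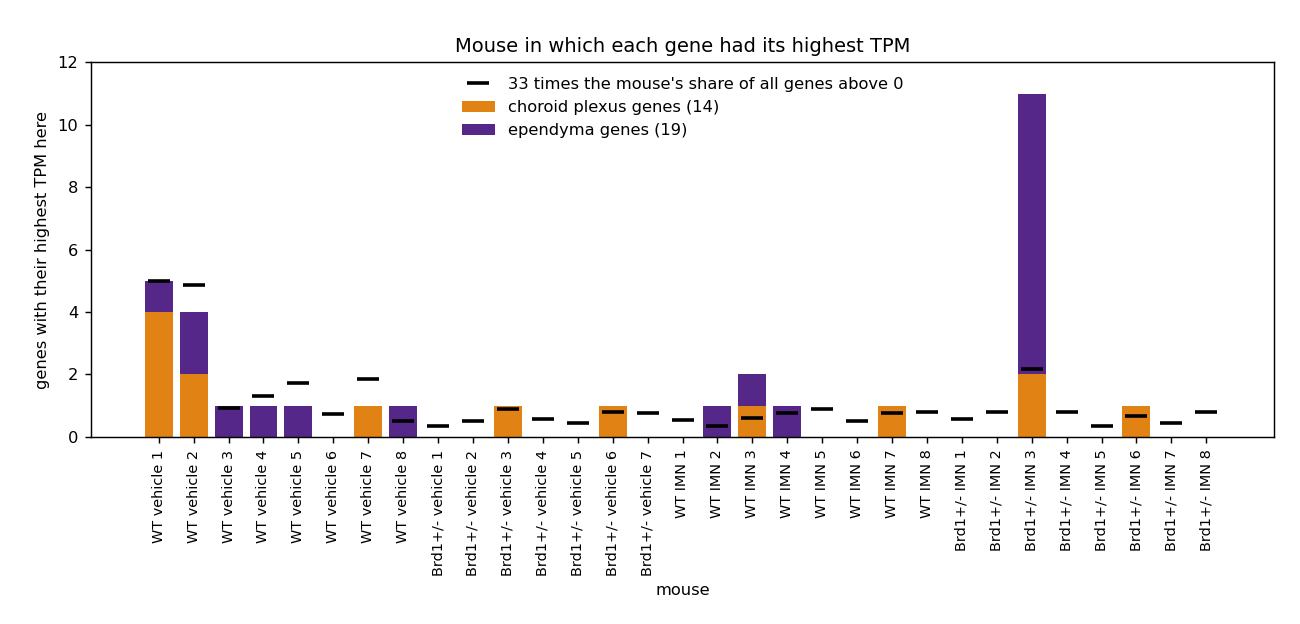
For each mouse, the bar counts the choroid plexus (orange) and ependyma (purple) genes that had their highest TPM in it, and the black dash marks 33 times the mouse's share of all genes above 0. Brd1+/- IMN mouse 3 has 11 of the 33, and WT vehicle mice 1 and 2, with 5 and 4, also hold 15.1% and 14.8% of all genes.

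Whether the 2 groups of genes rose in the same mice was examined first by presence. The mouse with the highest *Ttr*, Brd1+/- vehicle mouse 6, had *Ccdc153*, *Tmem212* and *Dynlrb2* listed at 0, and the mouse with the highest ependyma level, Brd1+/- IMN mouse 3, had *Ttr* and *Folr1* listed at 0. In that mouse other choroid plexus genes were high, *Kl* and *Otx2* at the top of all mice and *Clic6*, at 10.1 TPM, next to the highest. The choroid plexus genes other than *Enpp2* summed to 15.9 TPM there, the second highest sum after 30.7 TPM in Brd1+/- vehicle mouse 6. Of this, *Clic6* and *Kl* gave 10.1 and 4.53 TPM. With these 2 genes left out as well, the sum was 1.27 TPM there. It was higher in WT vehicle mice 1, 2, 3 and 7 (1.95 to 8.67 TPM), Brd1+/- IMN mouse 1 (6.74 TPM) and Brd1+/- vehicle mouse 6 (23.7 TPM). Of the 11 mice with *Ttr*, 1 also had *Ccdc153* (WT vehicle mouse 3), 2 had *Tmem212* (WT vehicle mice 1 and 3) and 6 had *Dynlrb2*, which was itself above 0 in 11 of 31 mice. WT vehicle mouse 3 was thus the only mouse in which *Ttr*, *Ccdc153* and *Tmem212* were all above 0. Leaving aside *Foxj1*, *Rarres2* and *Cd24a*, the ependyma genes summed to 2.62 TPM in the mouse with the highest *Ttr*, close to the median of 2.78 TPM over all 31 mice.

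**Figure D4:**
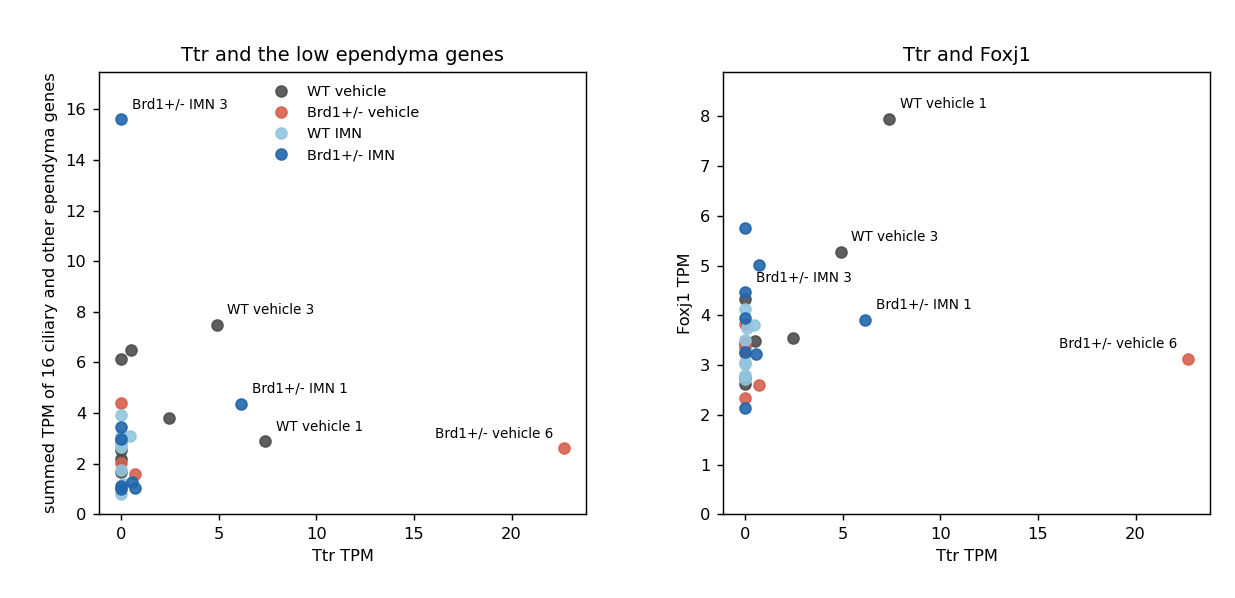
*Ttr* (TPM) against the summed TPM of the 16 ependyma genes other than *Foxj1*, *Rarres2* and *Cd24a* (left) and against *Foxj1* TPM (right), with 1 point per mouse coloured by group. Brd1+/- vehicle mouse 6, at 22.7 TPM of *Ttr*, sits at an ependyma sum of 2.62 TPM, and Brd1+/- IMN mouse 3, at a sum of 15.6 TPM, has *Ttr* at 0.

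Correlations across the 31 mice on log2(TPM + 1) were computed for 9 pairs of lead genes. *Ttr* and *Foxj1* gave Pearson's r = 0.357 (permutation p = 0.0503, adjusted p = 0.151 over the 9 pairs) and Spearman's rho = 0.291 (permutation p = 0.113, adjusted p = 0.340), and r was 0.323 without the 2 mice farthest from the median of *Ttr*. Since 20 mice had *Ttr* at 0, the pair was also taken within the 11 above 0, where r was 0.278 (permutation p = 0.410) and rho 0.236 (permutation p = 0.489). The median *Foxj1* level was 3.75 TPM in these 11 mice and 3.31 TPM in the 20 at 0. The correlation within the groups was 0.824 in WT vehicle mice, -0.06 in *Brd1*+/- vehicle mice, 0.459 in WT IMN mice and 0.0714 in *Brd1*+/- IMN mice. No relation of *Ttr* and *Foxj1* passed the adjusted threshold, and the value over all mice rose to 0.539 (permutation p = 0.00396, not adjusted) without Brd1+/- vehicle mouse 6 and was lowest, 0.167, without WT vehicle mouse 1.

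*Kl* and *Foxj1* gave r = -0.20 (permutation p = 0.249, adjusted p = 0.281) and rho = -0.38 (permutation p = 0.0371, adjusted p = 0.334). The r was -0.45 (permutation p = 0.0133, not adjusted) without Brd1+/- IMN mice 3 and 6, the 2 farthest from the median of *Kl*, and -0.53 (permutation p = 0.00271, not adjusted) without Brd1+/- IMN mouse 3. It was negative within each of the 4 groups, from -0.80 to -0.08. The other 7 pairs rest on genes above 0 in 2 or 3 mice. The lowest p of all 9 pairs belonged to 2 of these, *Kl* with *Tmem212* (r = 0.532, permutation p = 0.0309, adjusted p = 0.148) and *Kl* with *Ccdc153* (r = 0.536, permutation p = 0.0330, adjusted p = 0.148). Their rho was -0.03 (permutation p = 0.894) and 0.156 (permutation p = 0.421), and r went to -0.22 and -0.04 without Brd1+/- IMN mice 3 and 6. None of the 9 pairs passed after adjustment. Over the genes with enough values, 9 of the choroid plexus and 11 of the ependyma group, the median correlation after centring on group means was 0.0420 within the choroid plexus group (36 pairs), 0.134 within the ependyma group (55 pairs) and 0.107 between them (99 pairs), beside 0.0542 and 0.0434 for the same genes with all others tested. Between the groups 8 of the 99 pairs, 8.08%, were above 0.5, against 3.31% for the choroid plexus and 1.85% for the ependyma genes with all others. Within the groups these were 3 of 36 choroid plexus pairs (8.33%) and 1 of 55 ependyma pairs (1.82%). The strongest pair between the groups was *Enpp2* with *Foxj1* (0.756), and 5 of the 8 joined *Kl* or *Otx2* with *Rsph1*, *Ak7* or *Lrrc23*, all highest in Brd1+/- IMN mouse 3. These are descriptions across genes of the same 31 mice.

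Several of the more abundant members moved with markers of other cells. The 35 relations, of 7 members with 5 marker lists, were chosen after the values were seen. *Rarres2* passed with none of the 5 lists (lowest adjusted p = 0.0812 for r and 0.0976 for rho, permutation tests). *Kl* passed with the cortical markers by r only (r = -0.40, adjusted p = 0.0468, rho = -0.37, adjusted p = 0.0724, permutation tests), and r was -0.27 without the 2 farthest mice. *Rsph1* passed with the oligodendrocyte markers by rho only (rho = -0.44, adjusted p = 0.0323, r = -0.35, adjusted p = 0.0902, permutation tests). *Enpp2*, which mature oligodendrocytes also make, followed the summed level of 8 oligodendrocyte markers (r = 0.913, rho = 0.907, both with a permutation p of 1e-05, the smallest that 100000 resamples can give, adjusted p = 5.83e-05 for r). It did so without the WT vehicle group as well (r = 0.966, n = 23) and without the 2 mice farthest from the median (r = 0.878). *Foxj1* followed the same markers (r = 0.793, rho = 0.754, permutation p = 1e-05 and 2e-05), with r = 0.780 without the WT vehicle mice, and WT vehicle mouse 1, highest for both genes, also had the highest level of all 8 oligodendrocyte markers. Both genes also moved with 8 astrocyte markers, with which r was 0.764 for *Enpp2* (rho = 0.849) and 0.635 for *Foxj1* (rho = 0.636), and 0.822 and 0.573 without the WT vehicle mice. *Cd24a* followed 6 neuroblast markers (r = 0.683, rho = 0.666, permutation p = 2e-05 and 8e-05). By permutation tests it also passed with the oligodendrocyte (r = 0.491, adjusted p = 0.0181) and astrocyte markers (r = 0.473, adjusted p = 0.0236). *Enpp2* also passed with the cortical (r = 0.581, adjusted p = 0.0021) and neuroblast markers (r = 0.462, adjusted p = 0.0269), and *Foxj1* with the neuroblast markers (r = 0.419, adjusted p = 0.0463). With the striatal markers *Enpp2* and *Cd24a* passed by rho only (-0.57 and -0.43). For *Clic6* the 2 lowest values, 0.0760 and 0.387 TPM in WT vehicle mice 2 and 1, lay in the mice with the lowest striatal marker sums, 276 and 1256 TPM, and so no pooled value is given. Without that group (n = 23, no test) the r of *Clic6* was 0.124 with the striatal, -0.48 with the cortical, -0.76 with the oligodendrocyte, -0.58 with the astrocyte and 0.205 with the neuroblast markers. The part of these cells in the results was not tested.

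**Figure D5:**
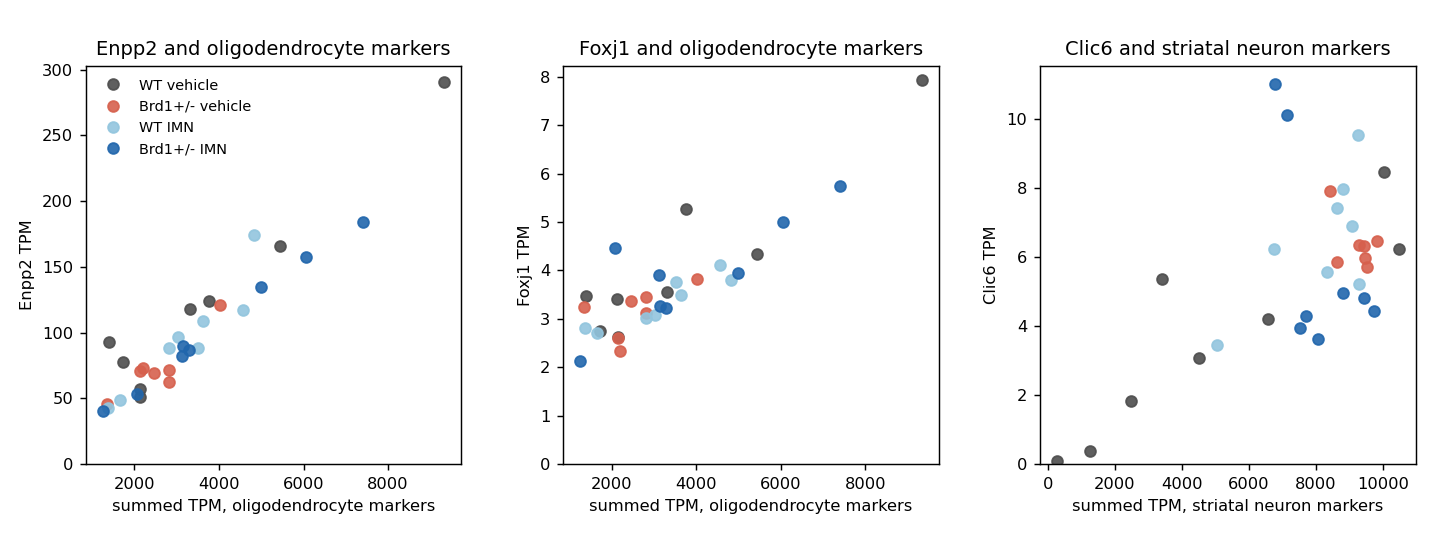
TPM of *Enpp2* and *Foxj1* against the summed TPM of 8 oligodendrocyte markers, and of *Clic6* against the summed TPM of 10 striatal neuron markers, with 1 point per mouse coloured by group. *Enpp2* and *Foxj1* are highest in the mouse with the highest oligodendrocyte sum, 9333 TPM, and *Clic6* is lowest in the 2 mice with the lowest striatal sums.

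The genes most like each lead gene also differed. After centring on group means, the 8 genes with the highest correlation with *Ttr* over the 31 mice were *Gm37352* (r = 0.690), *Gbp2* (r = 0.688), *Rtp4* (r = 0.685), *Slc12a4* (r = 0.679), *A330035P11Rik* (r = 0.671), *1500015O10Rik* (r = 0.669), *Tnfsf13os* (r = 0.667) and *B230208H11Rik* (r = 0.644), out of 25374 genes. *1500015O10Rik* is on the list of further choroid plexus genes. The 8 most like *Foxj1* were *Snx33* (r = 0.902), *Olig2* (r = 0.886), *Nkx6-2* (r = 0.879), *Hepacam* (r = 0.878), *Cdc42ep1* (r = 0.878), *Ddr1* (r = 0.877), *Litaf* (r = 0.875) and *Unc5b* (r = 0.862). *Olig2* and *Nkx6-2* are transcription factors of the oligodendrocyte lineage, and no gene of the further motile cilia list was among the 8. The 33 genes themselves were left out of both rankings and could not appear in them.

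Genotype was compared under vehicle first, which asks whether reduced *Brd1* alone alters these genes. Of the 33, 14 passed the filter on low values (more than 0.1 TPM in 7 or more mice of the fit), 7 of each group, and none was called at p under 0.01, where 13.6% of the 23200 genes tested were, nor at an FDR of 5%, where 0% were (limma on log2(TPM + 1)). These shares rest on single mice. Of all genes, 3153 were called at p under 0.01 and 0 at an FDR of 5%. The counts were 5154 and 5482 without WT vehicle mouse 8, 4576 and 4563 without WT vehicle mouse 6, and 188 and 1 without the 6 WT mice with high cortical markers. That last fit keeps only WT vehicle mice 6 and 8 of their group, so its errors rest on few mice. With the mean of the cortical markers as a covariate the counts were 705 and 0. The 3 members with a p under 0.05 were *Clic6*, higher in *Brd1*+/- mice by 0.97 on the log2(TPM + 1) scale (SE 0.40, limma adjusted p = 0.114), *Ak7*, by 0.17 (SE 0.07, limma adjusted p = 0.0995), and *Cd24a*, at -0.47 (SE 0.19, limma adjusted p = 0.112). *Clic6* ranged from 5.71 to 7.92 TPM in these *Brd1*+/- mice, within the 0.0760 to 8.46 TPM of the WT mice, and its difference was -0.17 without the 6 WT mice with high cortical markers. Without the same mice the difference was 0.12 for *Ak7* and -0.07 for *Cd24a*, and with the cortical covariate the 3 stood at 0.38, 0.14 and -0.30. The members' median difference was -0.02 and that of all genes -0.13. Median-of-ratios scaling of TPM between mice moved the median of all genes to -0.000719, and *Clic6*, *Ak7* and *Cd24a* kept their signs under it, *Cd24a* at -0.31.

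Under IMN, 11 of the 33 passed the filter and none was called at p under 0.01 or at an FDR of 5% (limma), beside 0.703% and 0.00428% of the 23339 genes tested, and none had a p under 0.05. The median difference was 0.08 for the members and -0.03 for all genes. *Foxj1* differed by 0.17 (SE 0.13) and *Enpp2* by 0.08 (SE 0.32) between *Brd1*+/- and WT mice, both within their spread.

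IMN was next compared with vehicle within WT mice, a comparison that shares its WT vehicle mice with the first, and *Kl* was the member called. It was higher with IMN by 0.40 on the log2(TPM + 1) scale (SE 0.09, limma adjusted p = 0.141), with 1.01 ± 0.233 TPM (SD, n = 8) against 0.530 ± 0.192 TPM (SD, n = 8), and 6 of the 8 IMN mice lay above every vehicle mouse. That made 1 of the 12 members tested at p under 0.01, beside 6.95% of the 23579 genes tested (1.35% for genes higher with IMN), and none at an FDR of 5%, beside 0.00424%. *Kl* did not pass p under 0.01 with all 4 groups in one fit. Nor did it pass without the 6 vehicle mice with high cortical markers, where only WT vehicle mice 6 and 8 stayed and the difference was 0.26 (SE 0.14). It did pass with the mean of the cortical markers as a covariate, at 0.34, and whichever single mouse was left out, WT vehicle mouse 7 among them (0.35 to 0.43, limma). The other member with a p under 0.05 was *Clic6*, higher by 0.97 (SE 0.39, limma adjusted p = 0.167), and -0.17 without those 6 mice and 0.40 with the covariate. The members' median was -0.08, the same as that of all genes to 2 decimals.

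Within *Brd1*+/- mice, IMN against vehicle left none of 11 members called at p under 0.01 or at an FDR of 5% (limma), beside 1.83% and 0% of the 23020 genes tested, and none had a p under 0.05. *Kl* differed by 0.27 (SE 0.22), a mean difference that includes Brd1+/- IMN mouse 3 at 4.53 TPM. The medians of *Kl* were 0.810 TPM with IMN and 0.721 TPM with vehicle. *Foxj1* differed by 0.24 (SE 0.14). The median was 0.07 for the members and 0.01 for all genes. The interaction of genotype and treatment, fitted over all 31 mice, likewise called none of 20 members at p under 0.01, beside 3.74% of the 25394 genes tested, and none at an FDR of 5%, beside 0%. *Clic6* (-1.15, SE 0.46, limma adjusted p = 0.263) and *Dynlrb2* (0.97, SE 0.41, limma adjusted p = 0.268) had p under 0.05, and both passed p under 0.01 with the mouse number as a block. Without the 6 WT mice with high cortical markers the value was -0.01 for *Clic6* and 0.35 (SE 0.49) for *Dynlrb2*, and with the cortical covariate -0.69 and 0.89.

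*Ttr* and *Foxj1*, as the lead gene of each group, were also compared by two-sided exact permutation tests of the group means of log2(TPM + 1). The lowest p of the 8 tests was 0.0956, for *Ttr*, lower with IMN in WT mice (difference -0.91, exact permutation test, n = 8 and 8), and adjusted over the 8 tests the lowest was 0.346. *Foxj1* differed by -0.27 between the genotypes under vehicle (exact permutation p = 0.138), a value that was -0.12 with median-of-ratios scaling and -0.15 without WT vehicle mouse 1, and by 0.24 between IMN and vehicle in *Brd1*+/- mice (exact permutation p = 0.127).

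Genes of the same tissues outside the 33 were read from the same fits at p under 0.01, and whether their share of calls differs from that of the 33 was not tested. Of 12 further choroid plexus genes tested under vehicle, 3 were higher in *Brd1*+/- mice, beside 1.47% of all genes tested, namely *Trpv4*, a cation channel (0.43, SE 0.12, limma adjusted p = 0.0556), *Igf2*, the insulin-like growth factor (0.63, SE 0.17, limma adjusted p = 0.0556), and *Ace*, the angiotensin-converting enzyme, which striatal neurons also make (1.34, SE 0.43, limma adjusted p = 0.0645). The other gene called, *Cab39l*, was lower (-0.48, SE 0.13), as were 12.1% of all genes. Of 20 further motile cilia genes, 3 were lower in *Brd1*+/- mice, a share near those 12.1%, namely *Ccdc39* (-0.46, SE 0.14), *Rsph9* (-1.02, SE 0.31) and *Cfap65* (-1.12, SE 0.35). None of the genes of either list passed p under 0.01 without the 6 WT mice with high cortical markers, beside 0.892% of the 21080 genes tested. That fit kept only WT vehicle mice 6 and 8 of their group. *Trpv4* and *Igf2* had differences near those of the full fit but larger errors, at 0.37 (SE 0.19) and 0.71 (SE 0.29). *Ace* was at 0.0113 (SE 0.34), *Cab39l* at -0.09, *Ccdc39* at -0.06, *Rsph9* at 0.13 and *Cfap65* at 0.17. With median-of-ratios scaling *Ccdc39* did not pass either, at -0.28.

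With IMN in WT mice *Trpv4* (0.51, SE 0.10, limma adjusted p = 0.132) and *Igf2* (0.53, SE 0.14, limma adjusted p = 0.141) were higher, as was *Spag6l* among the cilia genes (0.49, SE 0.12). These are 2 of 12 and 1 of 20, beside the 1.35% of all genes higher with IMN. The cilia count was 3 higher with median-of-ratios scaling, beside 666 higher of all 23496 genes tested. It was 2 higher and 1 lower without the same 6 mice, beside 296 higher and 107 lower of all 21664 genes tested. Without those mice *Spag6l* passed, at 0.70 (SE 0.15), and *Trpv4* and *Igf2* did not, at 0.45 (SE 0.15) and 0.62 (SE 0.23). In *Brd1*+/- mice *Igfbp2* was lower with IMN (-0.52, SE 0.17, limma adjusted p = 0.526), 1 of 13, beside 222 lower of all 23020 genes tested. *Igf2* and *Igfbp2* are also made by the leptomeninges. The 7 leptomeningeal markers other than *Igf2* summed to 9.77 ± 2.57 TPM (SD, n = 8) in WT vehicle, 13.9 ± 5.08 TPM (SD, n = 7) in *Brd1*+/- vehicle, 12.1 ± 3.36 TPM (SD, n = 8) in WT IMN and 11.0 ± 2.03 TPM (SD, n = 8) in *Brd1*+/- IMN mice. The highest sum, 24.3 TPM, lay in Brd1+/- vehicle mouse 4, which was also highest for *Igf2*. Their part in the result was not tested. The interaction called *Trpv4* and *Igf2*, 2 of 14, with negative sign and *Cfap65*, 1 of 20, with positive sign. Of all 25394 genes tested, 198 were called with negative and 753 with positive sign. None of the 3 passed without those mice. *Trpv4* went from -0.59 to -0.53, *Igf2* from -0.64 to -0.73 and *Cfap65*, positive in the full fit, to 0.00651. None of the genes named here passed an FDR of 5% (limma).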

How the data were processed

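RNA of 31 CPu punches was sequenced by the authors as single-end reads (BGISEQ-500), aligned to GRCm38 with HISAT2 2.1.0 and quantified with StringTie 1.3.4, per the methods and processing notes. The authors deposited TPM for 52636 Ensembl identifiers, of which 52403 had a symbol in the annotation used here. Sums per mouse were 999787 to 999918. The methods state a minimum of reads per sample, but the depth of each mouse is unknown from TPM, so precision rests on the spread between mice, and an exact 0 can be a failed estimate. Labels gave every group, and 0 columns were unused. The punches are separate mice.

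Each pair of groups was fitted alone with limma 3.58.1 (R 4.3.3, trend, two-sided) on log2(TPM + 1), over genes above 0.1 TPM in at least 7 mice, with Benjamini-Hochberg adjustment over all genes. The log2 scale understates changes of low genes. The authors' edgeR test needs counts and was not used. The fit was tested on simulated data. Named genes were all 33 members, up to 2 further genes per direction and list, and the 8 most like *Ttr* and *Foxj1*. *Car12*, *Ace* and the genes that peaked in 1 mouse were named after their values were seen. The 33 genes, lists and tests were chosen with earlier results of these data known. Alternatives were a pseudocount of 0.1, a mean of 1 TPM, no filter, median-of-ratios scaling, a mouse number block, a cortical covariate, 1 fit of all groups, and each mouse left out. Leaving out 6 mice, which keeps only mice 6 and 8 of the WT vehicle group, was added after seeing the data. *Ttr* sequence was not analysed here.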

Additional observations from a re-analysis of the deposited data

Results flagged for a closer look

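Within each group and gene, the highest and lowest mouse were compared with the rest of their group by Dixon's test at the 95% level, and a mouse lay far from the others in 36 of 124 tests. Of these tests 116 were of 1 gene in 1 group, with 16 more left untested because every mouse was at 0, and 8 were of the summed level of a gene group, none of which set a mouse apart. Chance gives about 1 in 20 groups, and the test assumes a normal spread, which a gene listed at 0 in most mice does not have.

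Brd1+/- IMN mouse 3 was set apart for 8 genes, *Kl* at 4.53 TPM, *Otx2* at 0.567 TPM, *Ccdc153* at 2.09 TPM, *Tmem212* at 0.905 TPM, *Dnah6* at 0.174 TPM, *Dnah12* at 0.0231 TPM, *Lrrc23* at 1.90 TPM and *Mlf1* at 0.665 TPM. All were the highest of their group. Brd1+/- vehicle mouse 3 was set apart for 5 genes, again each at the top of its group, *Kl* at 1.06 TPM, *Clic6* at 7.92 TPM, *Steap1* at 0.151 TPM, *Pifo* at 0.291 TPM and *Mlf1* at 0.249 TPM.

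*Ttr* set apart Brd1+/- vehicle mouse 6 at 22.7 TPM, Brd1+/- IMN mouse 1 at 6.17 TPM and WT IMN mouse 5 at 0.466 TPM. Brd1+/- vehicle mouse 6 was also the highest of its group for *Calml4* at 0.299 TPM and *Mia* at 0.590 TPM. In WT vehicle mice the same held for mouse 1 with *Slc4a5* at 0.0812 TPM and *Calml4* at 0.349 TPM, mouse 2 with *Prlr* at 0.255 TPM and *Aqp1* at 0.544 TPM, mouse 3 with *Otx2* at 0.169 TPM, *Ccdc153* at 1.93 TPM and *Dnah12* at 0.0392 TPM, mouse 5 with *Cfap52* at 0.406 TPM and *Mlf1* at 0.353 TPM, and mouse 6 with *Pifo* at 0.459 TPM.

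In the remaining groups these were *Dynlrb2* at 0.902 TPM and *Rsph1* at 2.70 TPM in Brd1+/- vehicle mouse 7, *Fam183b* at 0.618 TPM in Brd1+/- vehicle mouse 5, *Slc4a5* at 0.0349 TPM in WT IMN mouse 1, *Sostdc1* at 0.213 TPM in WT IMN mouse 5, *Aqp1* at 0.297 TPM in WT IMN mouse 6, and *Slc4a5* at 0.0343 TPM and *Steap1* at 0.124 TPM in Brd1+/- IMN mouse 6.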

How the results depend on the processing

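Reads per mouse are not known beyond the minimum that the methods state, and most of the 33 genes have a median under 1 TPM, so the counting error of the low values cannot be given. Under vehicle, members called at p under 0.01 between the genotypes went from 0 to 1 with no filter and with median-of-ratios scaling (*Ak7*) and with all 4 groups in one fit (*Clic6*, also 1 at an FDR of 5%), and ranged from 0 to 1 at both thresholds when each mouse was left out, the 1 arising at p under 0.01 without WT vehicle mouse 3, 6 or 8 and at an FDR of 5% without mouse 6 or 8. For IMN against vehicle in WT mice the count of 1 became 0 with a mean TPM of at least 1, which *Kl* misses, and 0 without the 6 mice with high cortical markers. It ranged from 1 to 2 with each mouse left out, 2 without WT vehicle mouse 6, and at an FDR of 5% from 0 to 1, 1 without WT vehicle mouse 6 or 8. The interaction count of 0 ranged from 0 to 1, 1 without WT vehicle mouse 6 or 8 or Brd1+/- IMN mouse 6. Without the 6 mice with high cortical markers *Clic6* turned to -0.17 in both comparisons with WT vehicle mice. The cause was not tested. Leaving out each mouse, all genes called at p under 0.01 ranged from 2036 to 5154 between the genotypes under vehicle, from 905 to 3576 for IMN in WT mice and from 546 to 2571 for the interaction, each highest without WT vehicle mouse 8, and for IMN in WT mice those at an FDR of 5% rose to 1176 and 2459 without WT vehicle mouse 6 and mouse 8. The cortical covariate took those at p under 0.01 to 705 under vehicle, from 1639 to 371 for IMN in WT mice and from 951 to 372 for the interaction. At p under 0.01, the genes higher and lower were 342 and 2811 between the genotypes under vehicle as deposited and 899 and 1236 with median-of-ratios scaling, 44 and 120 against 73 and 85 between them under IMN, 318 and 1321 against 666 and 748 for IMN in WT mice, and 753 and 198 against 405 and 400 for the interaction.

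Mouse numbers are shared between groups. Same-numbered mice correlated from -0.39 to 0.41 over 30 pairs, 7 above 0.1, and 3 mice matched best their own number, so the numbers do not pair the mice. With the mouse number as a block the interaction count was 2 (*Clic6* and *Dynlrb2*), and no other member call changed, while genes called at an FDR of 5% between the genotypes under vehicle went from 0 to 3583. They also went to 1833 with a mean TPM of at least 1 and to 4963 with all 4 groups in one fit, which gave 2291 in place of 1 for IMN in WT mice.

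The correlation of *Ttr* with *Foxj1* was 0.374 with a pseudocount of 0.1 (permutation p = 0.0391, not adjusted) and ranged from 0.167 without WT vehicle mouse 1 to 0.539 without Brd1+/- vehicle mouse 6. That of *Kl* with *Foxj1* was -0.45 without the 2 farthest mice and ranged from -0.53 without Brd1+/- IMN mouse 3 to -0.0895 without WT vehicle mouse 1. The difference of *Ttr* between the genotypes under vehicle ranged from -0.88 to 0.0507, turning sign without WT vehicle mouse 1, and that between IMN and vehicle in *Brd1*+/- mice from -0.56 to 0.40, turning sign without Brd1+/- vehicle mouse 6. For *Foxj1* the difference between the genotypes under IMN ranged from 0.10 to 0.25 and that between IMN and vehicle in *Brd1*+/- mice from 0.17 to 0.33, the higher ends without Brd1+/- IMN mouse 6 (exact permutation p = 0.0382 and 0.0181, not adjusted).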
